A study of Mus musculus with 12 samples.

Results

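The genes described here encode the translation initiation factors of the mouse and their closest regulators. They are the genes in the deposited FPKM table whose symbols start with Eif and a digit, without Eif2s3x and Eif2s3y, and they number 51 of 14317 genes. Eif3j1 and Eif3j2 are near-identical copies and were summed, which gives 50 members. The mRNA was sequenced from the penumbra of the ipsilateral cortex, the tissue around the infarct core. The tMCAO/R group held 6 mice with transient middle cerebral artery occlusion of 60 min and reperfusion for 24 h, and the Sham group held 6 mice with sham surgery. All were given as male C57BL/6J mice aged 8 weeks, with no transgene and no drug in these groups. Each mouse gave 1 poly(A) library.

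Initiation is the step at which a ribosome is placed on the start codon of an mRNA. eIF2 brings the initiator tRNA as a ternary complex with GTP, and eIF2B reloads eIF2 with GTP. Kinases that phosphorylate the alpha subunit of eIF2 turn it into an inhibitor of eIF2B, which lowers general translation under stress. eIF3 is the large scaffold on the small ribosomal subunit, eIF4F recruits the capped mRNA, and eIF5B joins the large subunit. A block of translation after ischemia, with phosphorylation of eIF2 alpha, is textbook knowledge of the ischemic brain, whereas the values below are mRNA levels and say nothing of phosphorylation or of protein.

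FPKM are fragments scaled by gene length and by library total. The gene lengths behind them, recovered from the steps of the values, were longer than the whole annotated gene for 1576 genes, so a level is set only against the same gene in the other group and not against another gene. All 50 members reached 0.5 FPKM in at least 6 libraries, the minimum for the test. The log2FC is the difference of tMCAO/R over Sham on log2(FPKM + 1), given with its standard error (SE). A member is called at an adjusted p under 0.01 (limma, Benjamini-Hochberg over 11742 genes), with no minimum fold.

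In tMCAO/R mice 7 of the 50 members were higher, 11 were lower, and 32 were not called. The 18 called members are 36% of 50, beside 35.6% of all 11742 genes tested. The higher members are 14% and the lower ones 22%, beside 17.8% of all genes in each direction. The members were thus called about as often as any gene. The groups did not overlap in 16 members (32%), beside 27.0% of all genes. On recovered fragments scaled by library totals this held for 15 members (30%, beside 25.2%), and on fragments without that scaling for 9 (18%, beside 21.3%). The median log2FC was -0.13 for the members and -0.01 for all genes. None of the 50 members passed an absolute log2FC of 2, the study's second threshold, which 0.238% of all genes passed upward and 0.255% downward. The differences ran from -0.78 for Eif4e3 to 1.00 for the summed Eif3j pair.

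**Figure D1:**
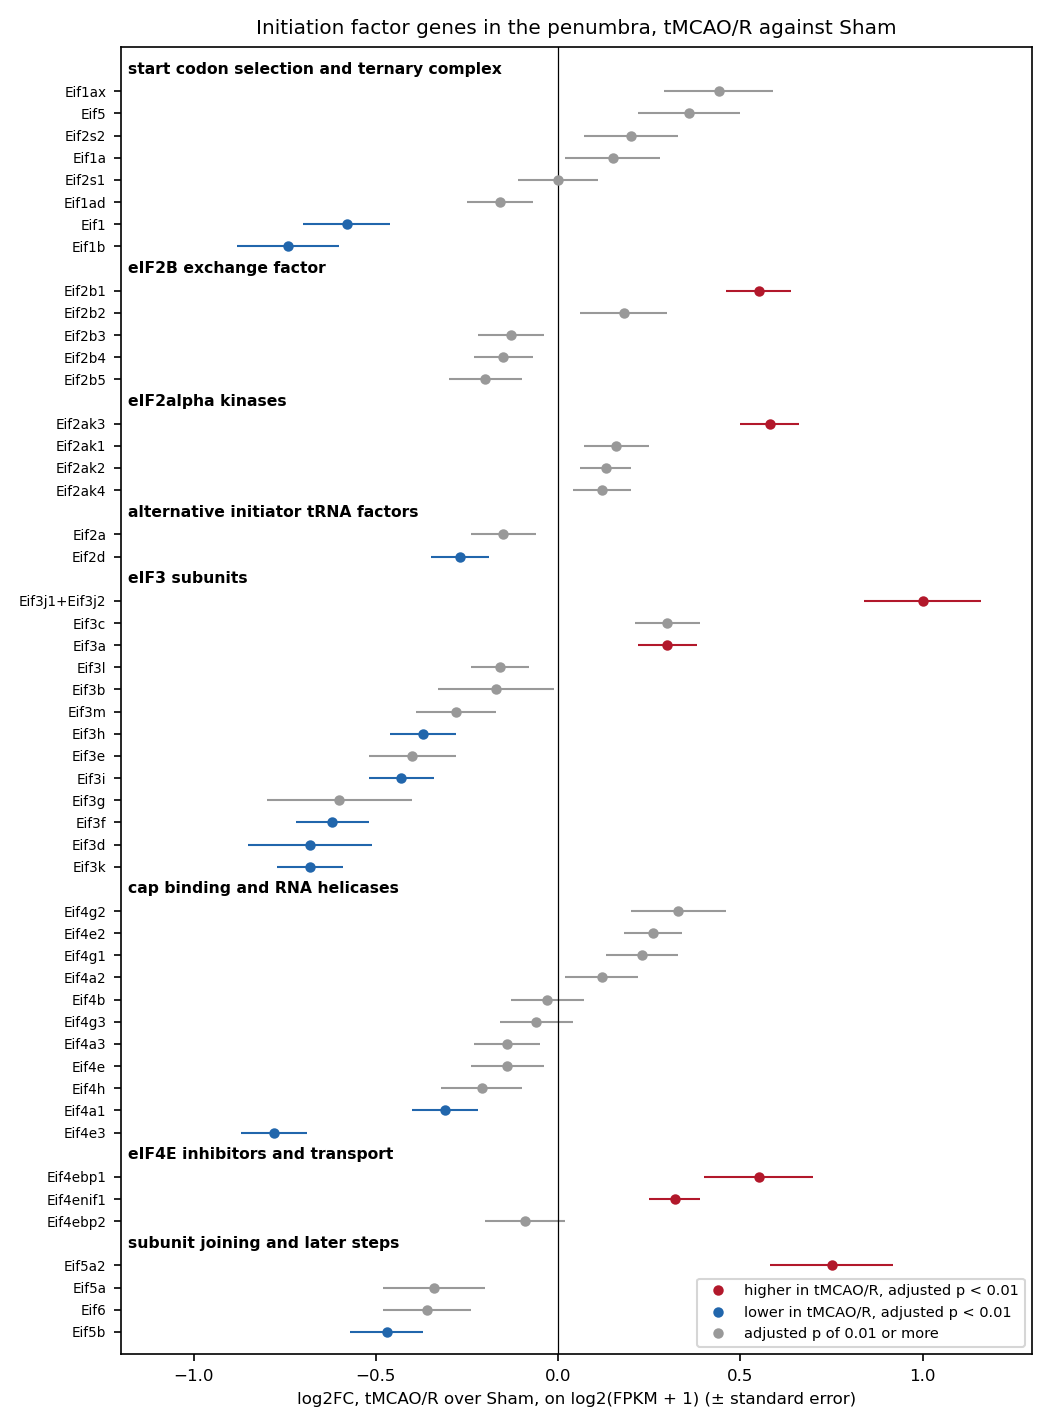
Log2FC of tMCAO/R over Sham on log2(FPKM + 1) for the 50 members, grouped by role, with bars for the standard error and 6 mice per group. The 7 red points were higher and the 11 blue points lower in tMCAO/R mice at an adjusted p under 0.01, and 10 of the 13 eIF3 points lie left of 0.

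The libraries differed in ways that touch these values. They held 13057288 to 14988265 fragments in the tMCAO/R group and 13496273 to 15808212 in the Sham group. The library of tMCAO/R mouse 4 stood apart, with a median Spearman correlation of 0.934 with its group, where the other tMCAO/R libraries had 0.971 to 0.98 and Sham libraries had 0.981 to 0.989. Marker sums showed that the tissue differed between the groups: 6 dentate gyrus and CA1 markers summed to 6.41 to 8.79 FPKM in tMCAO/R mice and 151 to 248 FPKM in Sham mice, and 6 striatum markers summed to 51.3 to 472 FPKM in tMCAO/R mice and 20.8 to 30.8 FPKM in Sham mice. Of 10 neuron markers 5 were higher and none was lower (summed 844 to 1085 FPKM in tMCAO/R mice and 687 to 829 FPKM in Sham mice), and of 8 oligodendrocyte markers none was higher and 5 were lower (summed 349 to 663 FPKM in tMCAO/R mice and 671 to 1563 FPKM in Sham mice). Of 5 red cell markers all 5 were lower, and of 7 microglia markers 1 was higher and 3 were lower. Of 7 astrocyte markers 1 was higher and 2 were lower, and of 6 endothelial markers 3 were higher and 2 were lower. Of 2 markers of infiltrating leukocytes that were tested none was called. Among all genes 17.8% were called in each direction. The 4 choroid plexus markers in the table summed to 0.728 to 4.39 FPKM in tMCAO/R mice and 33.1 to 1859 FPKM in Sham mice. Mitochondrial transcripts took 2.85% to 8.69% of the fragments in the tMCAO/R group and 5.29% to 8.51% in the Sham group. Ddx3y, Uty and Kdm5d, genes of the Y chromosome, were listed at 0 in all 6 Sham libraries although the mice are given as male, and summed to 6.41 to 13.3 FPKM in tMCAO/R mice. The part of these differences in the results was not tested, and in bulk tissue fewer cells of a type and less RNA per cell cannot be told apart.

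Factors that select the start codon formed the first group, with 8 members of which none was higher and 2 were lower. The called share was 25%, beside 35.6% of all genes. Eif1, whose protein guards the accuracy of start codon choice, had 75.9, 86.2 and 108 FPKM as the lowest, median and highest value in tMCAO/R mice, against 102, 136 and 146 FPKM in Sham mice. The groups overlapped only through Sham mouse 6, at 102 FPKM, and the log2FC was -0.58 (SE 0.12, adjusted p = 0.00093, limma). Eif1b encodes a close relative of eIF1. It had 11, 19.2 and 21.7 FPKM in tMCAO/R mice, against 27, 31.5 and 35.3 FPKM in Sham mice. All 6 tMCAO/R mice were below all 6 Sham mice, with a log2FC of -0.74 (SE 0.14, adjusted p = 0.00064, limma).

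Eif1a and Eif1ax encode eIF1A, the partner of eIF1 on the small subunit, and neither was called. Eif1a had 3.51, 4.21 and 7.49 FPKM in tMCAO/R mice and 3.43, 4.07 and 4.58 FPKM in Sham mice. Eif1ax had 29.3, 35.9 and 63.2 FPKM in tMCAO/R mice and 24.2, 28.4 and 31.5 FPKM in Sham mice, and 5 of 6 tMCAO/R mice were above all Sham mice (log2FC 0.44, SE 0.15, adjusted p = 0.025, limma). Without tMCAO/R mouse 4, the highest library for both genes, Eif1ax was called at a log2FC of 0.29 (adjusted p = 0.0085, limma).

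Eif2s1 encodes the alpha subunit of eIF2, the one that the stress kinases phosphorylate. It had 6.84, 7.44 and 11.4 FPKM in tMCAO/R mice and 7.18, 8.07 and 8.69 FPKM in Sham mice. Its log2FC was 0.00 (SE 0.11, adjusted p = 0.98, limma), and the groups overlapped. Eif2s2, the beta subunit, had a log2FC of 0.20, Eif5, the GTPase activator of eIF2, one of 0.36, and Eif1ad one of -0.16, and none of these was called. The gamma subunit genes Eif2s3x and Eif2s3y are not members. Eif2s3x on the X chromosome had 10.7 to 13.5 FPKM in tMCAO/R mice and 9.66 to 14.1 FPKM in Sham mice. Eif2s3y on the Y chromosome had 1.38 to 3.56 FPKM in tMCAO/R mice while every Sham library had a listed value of 0, as for the other Y genes.

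Among the 5 subunits of eIF2B, Eif2b1 alone was called (20%, beside 35.6% of all genes). It encodes the alpha subunit, part of the regulatory core that senses phosphorylated eIF2. Eif2b1 had 7.28, 8.64 and 9.82 FPKM in tMCAO/R mice, against 5.14, 5.6 and 6.09 FPKM in Sham mice. The ranges of the groups were apart, and the log2FC was 0.55 (SE 0.09, adjusted p = 0.00013, limma). The other 4 subunits had log2FC of 0.18 for Eif2b2, -0.13 for Eif2b3, -0.15 for Eif2b4 and -0.20 for Eif2b5, the catalytic subunit, each with overlapping groups. Without tMCAO/R mouse 4, Eif2b2 was called as well, with a log2FC of 0.27 (adjusted p = 0.0097, limma).

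All 4 kinases of eIF2 alpha had a positive log2FC, and 1 of them was called (25%, beside 35.6% of all genes). Eif2ak3 encodes PERK, the kinase of the endoplasmic reticulum that responds to unfolded proteins. It had 2.22, 2.81 and 3.15 FPKM in tMCAO/R mice, against 1.3, 1.47 and 1.91 FPKM in Sham mice. Every tMCAO/R mouse was above every Sham mouse, and the mean was 1.82 times as high. The log2FC was 0.58 (SE 0.08, adjusted p = 7.1e-05, limma), from 316 to 410 fragments in tMCAO/R mice, against 178 to 245 in Sham mice. Eif2ak1 (HRI, activated by lack of heme) had a log2FC of 0.16, Eif2ak2 (PKR, activated by double-stranded RNA) one of 0.13 and Eif2ak4 (GCN2, activated by lack of amino acids) one of 0.12, and the groups overlapped for each.

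The factors around these kinases are set beside all genes, of which 17.8% were called in each direction. Of 11 phosphatases of eIF2 alpha and regulators of the integrated stress response, 1 was higher and none was lower, with a median log2FC of 0.16. Dnajc3, a chaperone of the endoplasmic reticulum that also inhibits eIF2 alpha kinases, was the one, at 17.9 ± 5.78 FPKM in tMCAO/R mice and 10.8 ± 1.61 FPKM in Sham mice (SD, n = 6 each), with a log2FC of 0.63 (adjusted p = 0.0091, limma). Atf4, the transcription factor made under phosphorylated eIF2, had 28.2 ± 7.49 FPKM in tMCAO/R mice and 34.9 ± 4.09 FPKM in Sham mice (SD, n = 6 each), and was not called (adjusted p = 0.086, limma). Ppp1r15b, a subunit that directs a phosphatase to eIF2 alpha, had a log2FC of 0.26 and Impact, an inhibitor of GCN2, one of 0.16, and neither was called. Eif2a and Eif2d encode factors that can deliver initiator tRNA without eIF2. Eif2d was lower, with a log2FC of -0.27 (adjusted p = 0.0097, limma), a call that was lost in 9 of the 12 fits with 1 library left out (kept without tMCAO/R mouse 4 or 6 or Sham mouse 5), and Eif2a had a log2FC of -0.15 and was not called.

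eIF3, the largest group, had calls in both directions. Of its 13 members 7 were called (53.8%, beside 35.6% of all genes), 2 higher and 5 lower, and the groups did not overlap in 8 (61.5%, beside 27.0% of all genes). The median log2FC was -0.37, and without the Eif3j pair it was -0.39, with 10 of 12 subunits negative. Without that pair 6 of 12 were called (50%), and the groups did not overlap in 7 (58.3%). With a replicate block in the fit 1 of the 13 was higher and 3 were lower, beside 15% and 14.5% of all genes. Eif3k, a small subunit at the edge of the complex, had 13.3, 14.2 and 16.8 FPKM in tMCAO/R mice, against 20.5, 23.9 and 26.7 FPKM in Sham mice. The groups stood clear of each other, with a log2FC of -0.68 (SE 0.09, adjusted p = 3.8e-05, limma).

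Eif3f and Eif3h encode the pair of subunits with MPN domains. Eif3f had 32.2, 34.7 and 42.4 FPKM in tMCAO/R mice, against 46.1, 55.9 and 62 FPKM in Sham mice, with a log2FC of -0.62 (SE 0.10, adjusted p = 0.00013, limma). Eif3h had 42.2, 44.8 and 46.5 FPKM in tMCAO/R mice, against 49.2, 59.3 and 63.5 FPKM in Sham mice, with a log2FC of -0.37 (SE 0.09, adjusted p = 0.0027, limma). Neither gene overlapped between the groups. Under quantile normalization the log2FC of Eif3h was -0.21 and it was no longer called (adjusted p = 0.037, limma).

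Eif3i, a subunit with WD repeats, had 15.2, 17 and 17.9 FPKM in tMCAO/R mice, against 18.4, 23.9 and 26.5 FPKM in Sham mice. All tMCAO/R mice lay below all Sham mice, and the log2FC was -0.43 (SE 0.09, adjusted p = 0.0018, limma). Eif3d, which can bind the cap of some mRNAs itself, was lower with a log2FC of -0.68 (SE 0.17, adjusted p = 0.0039, limma). Its call was lost without Sham mouse 4 (log2FC -0.63, adjusted p = 0.011, limma) and without Sham mouse 5 (log2FC -0.65, adjusted p = 0.01, limma). Eif3g had a log2FC of -0.60 with an SE of 0.20 and Eif3e one of -0.40, and neither was called in the full set. Eif3b, Eif3l and Eif3m had log2FC of -0.17, -0.16 and -0.28 and were not called. Without tMCAO/R mouse 4, Eif3e, Eif3g and Eif3m were called lower too, so that 8 of 13 were lower, beside 21.3% of all genes in that fit. The log2FC of Eif3g was then smaller, at -0.39, and that of Eif3b was -0.01.

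Against these, Eif3a and Eif3c, which encode the largest subunits and the core of the scaffold, had positive differences. Eif3a had 16.4, 18.3 and 20.2 FPKM in tMCAO/R mice, against 13.7, 14.4 and 15.9 FPKM in Sham mice. The ranges were apart, with a log2FC of 0.30 (SE 0.08, adjusted p = 0.0077, limma). This call was kept without tMCAO/R mouse 3, 4 or 6 or Sham mouse 6, and lost in the other 8 fits with 1 library left out, at adjusted p of 0.011 to 0.022. Eif3c also had a log2FC of 0.30 and groups that did not overlap, but it was not called (SE 0.09, adjusted p = 0.015, limma).

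**Figure D2:**
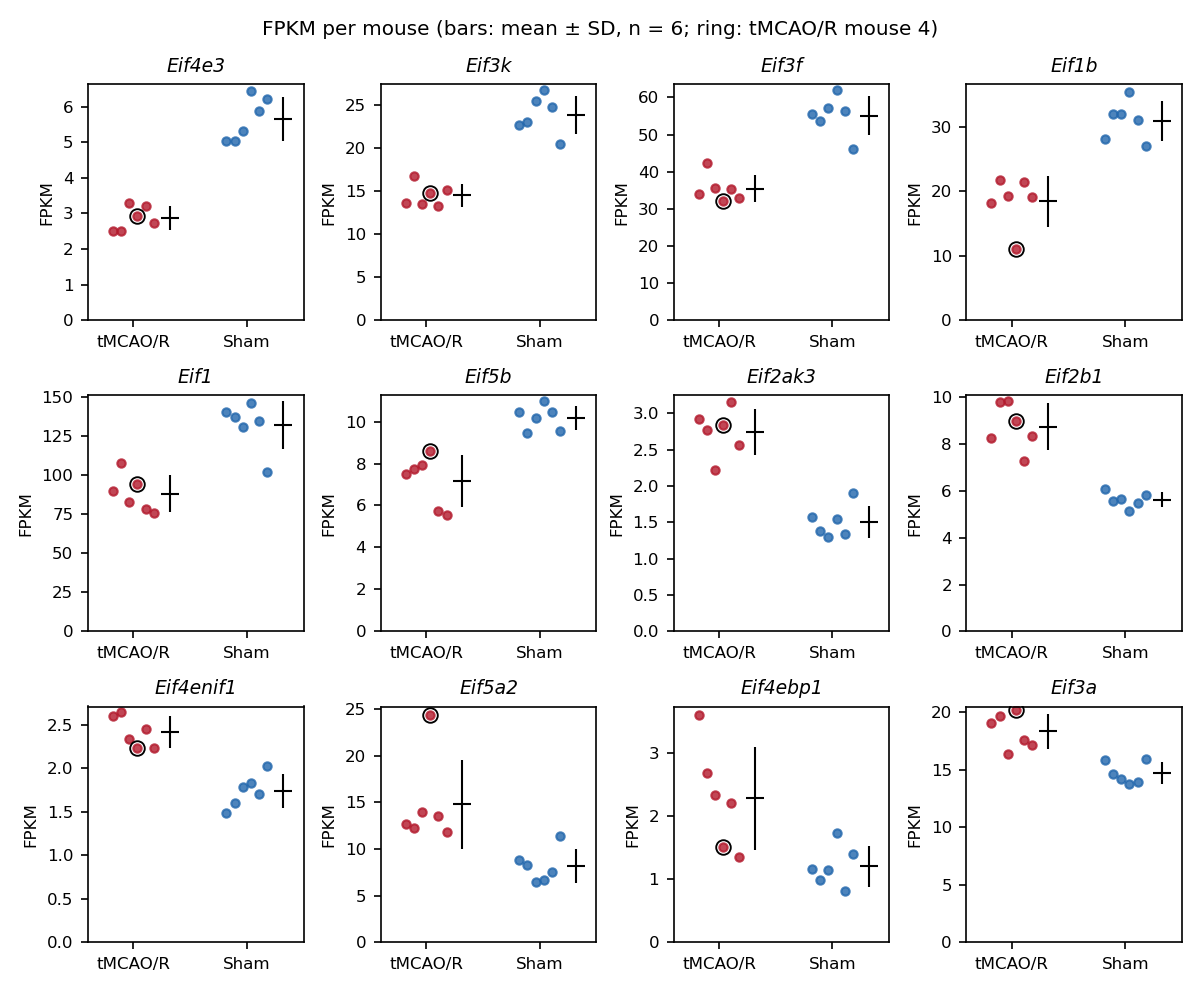
FPKM of 12 called members in each of the 6 tMCAO/R and 6 Sham mice, with the mean and SD beside the points and tMCAO/R mouse 4 ringed. The first 6 panels are members that were lower in tMCAO/R mice and the last 6 members that were higher, and the groups overlap in Eif1 and Eif4ebp1.

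The largest difference among the members belonged to the Eif3j pair, and it depended on how fragments were divided by length. eIF3j is the loosely bound subunit that helps eIF3 onto and off the ribosome. Eif3j1 lies on chromosome 2 at chr2:121858606-121906334 on the plus strand of GRCm39 and has 8 exons, and Eif3j2 is a copy with 1 exon at chr18:43608483-43610861 on the minus strand. Eif3j2 is 99.4% identical to the Eif3j1 transcript over 2379 bases, so a fragment can often be placed on either.

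Eif3j1 had 2.79, 3.16 and 5.44 FPKM in tMCAO/R mice, against 4.14, 5.1 and 5.9 FPKM in Sham mice, and the groups overlapped. Eif3j2 had 5.81, 7.48 and 13.7 FPKM in tMCAO/R mice, against 0, 0.106 and 0.202 FPKM in Sham mice. In fragments, Eif3j2 took 182 to 426 per library in tMCAO/R mice, against 0 to 7 in Sham mice. Thus 44.2% to 51.2% of the fragments of the pair were placed on Eif3j2 in tMCAO/R mice, whereas the share was 0% to 1.62% in Sham mice. The Sham libraries, near 0 for Eif3j2, are the ones at 0 for the Y genes, and the 2 patterns cannot be told apart from the group.

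The summed pair had 8.72, 10.6 and 19.2 FPKM in tMCAO/R mice, against 4.23, 5.21 and 6.05 FPKM in Sham mice, with a log2FC of 1.00 (SE 0.16, adjusted p = 0.00014, limma). The authors' FPKM divided by 6007 bases for Eif3j1 and by 2379 bases for Eif3j2, so a fragment placed on Eif3j2 counts for more. The summed fragments, which do not depend on that, were 412 to 853 per library in tMCAO/R mice, against 362 to 565 in Sham mice, or 41.1 ± 12.9 CPM, a measure scaled by the library total alone, in tMCAO/R mice and 31.2 ± 4.11 CPM in Sham mice (SD, n = 6 each). The groups then overlapped, the log2FC was 0.35 (SE 0.17) and the pair was not called (adjusted p = 0.094, limma-voom).

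**Figure D3:**
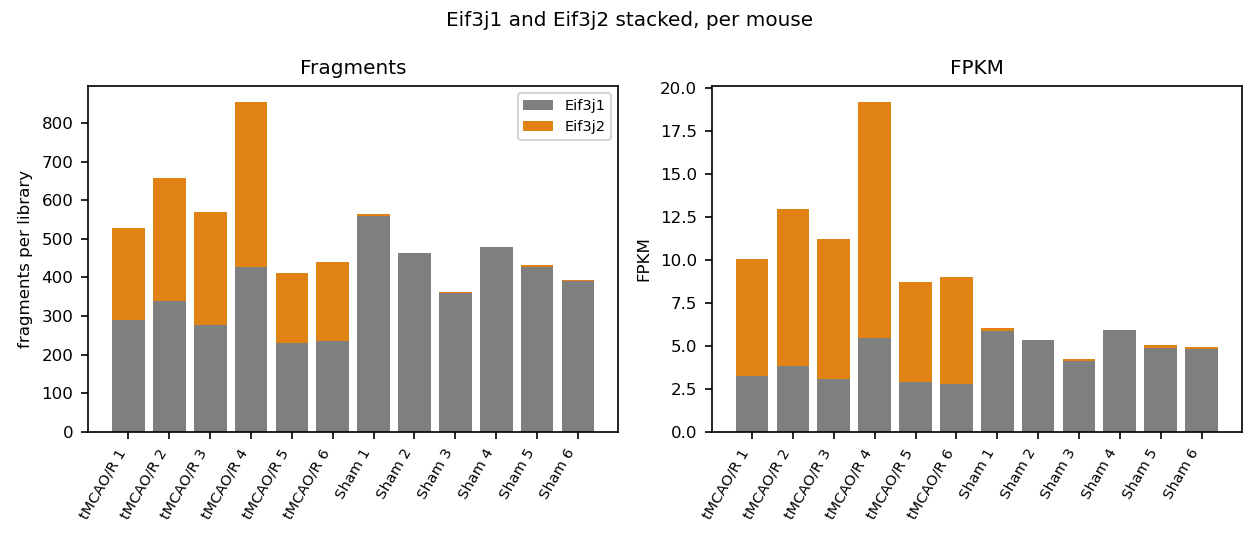
Fragments (left) and FPKM (right) of Eif3j1 and Eif3j2 stacked for each of the 12 mice, tMCAO/R before Sham. The orange part, Eif3j2, holds 182 to 426 fragments in tMCAO/R mice, against 0 to 7 in Sham mice, and it takes a larger share of the FPKM than of the fragments.

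Cap binding factors and RNA helicases made up 11 members, of which none was higher and 2 were lower. Their called share was 18.2%, beside 35.6% of all genes. Eif4e3, an unusual member of the cap-binding eIF4E family, showed the smallest p of all members. It had 2.51, 2.83 and 3.29 FPKM in tMCAO/R mice, against 5.02, 5.6 and 6.42 FPKM in Sham mice. The groups were far apart, with a log2FC of -0.78 (SE 0.09, adjusted p = 8.3e-06, limma) from 93 to 124 fragments in tMCAO/R mice, against 182 to 218 in Sham mice. Eif4e, the main cap-binding protein, and Eif4e2, a relative that represses translation, had log2FC of -0.14 and 0.26 and were not called. Both were called without tMCAO/R mouse 4, with a log2FC of -0.22 for Eif4e (adjusted p = 0.0046, limma) and 0.28 for Eif4e2 (adjusted p = 0.006, limma).

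Eif4a1 encodes the helicase that unwinds the start of the mRNA. It had 14.9, 16.2 and 20 FPKM in tMCAO/R mice, against 19.5, 20.6 and 22.3 FPKM in Sham mice, with a log2FC of -0.31 (SE 0.09, adjusted p = 0.0085, limma). The groups overlapped slightly, and the call was kept without tMCAO/R mouse 2 or 4 and lost in the other 10 fits with 1 library left out, at adjusted p of 0.012 to 0.025. Eif4a2, its paralog that is abundant in neurons, had 25.5, 28.3 and 35.3 FPKM in tMCAO/R mice and 24.2, 26.9 and 28.4 FPKM in Sham mice and was not called (log2FC 0.12, adjusted p = 0.33, limma). Eif4a3, a helicase of the exon junction complex, had a log2FC of -0.14.

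The eIF4G scaffolds were not called. Eif4g1 had 3.12, 4.89 and 5.14 FPKM in tMCAO/R mice and 3.4, 3.68 and 4.22 FPKM in Sham mice (log2FC 0.23, adjusted p = 0.068, limma). Its lowest tMCAO/R value was that of mouse 4, and without that library the log2FC was 0.32 and the gene was called (adjusted p = 0.001, limma). Eif4g3 had 3.53, 4.52 and 5.47 FPKM in tMCAO/R mice and 4.47, 4.58 and 4.91 FPKM in Sham mice (log2FC -0.06). Eif4g2, which encodes a scaffold without the binding site for eIF4E, had a log2FC of 0.33 (adjusted p = 0.046, limma), or 0.21 without tMCAO/R mouse 4, its highest library. The helicase cofactors Eif4b and Eif4h had log2FC of -0.03 and -0.21. Eif4h had 36.1, 52.3 and 57.4 FPKM in tMCAO/R mice and 53.4, 58.1 and 60.5 FPKM in Sham mice, with overlap.

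Of the 3 members that hold eIF4E back or carry it, 2 were higher (66.7%, beside 17.8% of all genes). Eif4enif1 encodes 4E-T, which takes eIF4E to the nucleus and to processing bodies. It had 2.23, 2.4 and 2.65 FPKM in tMCAO/R mice, against 1.48, 1.75 and 2.03 FPKM in Sham mice. The groups did not overlap, and the log2FC was 0.32 (SE 0.07, adjusted p = 0.0022, limma). Eif4ebp1 encodes an eIF4E-binding protein that blocks cap-dependent initiation until mTORC1 phosphorylates it. It had 1.36, 2.27 and 3.59 FPKM in tMCAO/R mice, against 0.809, 1.15 and 1.72 FPKM in Sham mice, and the groups overlapped (log2FC 0.55, SE 0.15, adjusted p = 0.0072, limma). It rested on 53 to 149 fragments in tMCAO/R mice, against 33 to 65 in Sham mice, and on fragments it was not called (log2FC 0.90, adjusted p = 0.013, limma-voom). The call was kept without tMCAO/R mouse 4 or 6 or Sham mouse 4 or 6, and lost in the other 8 fits with 1 library left out, at adjusted p of 0.014 to 0.02. Eif4ebp2, its paralog, had 5.76, 8.48 and 9.86 FPKM in tMCAO/R mice and 7.76, 8.56 and 10.2 FPKM in Sham mice (log2FC -0.09).

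The last group, of 4 members, acts at subunit joining and after it. Eif5b, the GTPase that joins the subunits, had 5.55, 7.62 and 8.59 FPKM in tMCAO/R mice, against 9.47, 10.3 and 11 FPKM in Sham mice. The groups did not overlap, with a log2FC of -0.47 (SE 0.10, adjusted p = 0.0021, limma). Eif6, which keeps the large subunit from joining too early, had a log2FC of -0.36 and was not called. It was called without tMCAO/R mouse 2 (log2FC -0.45, adjusted p = 0.0043, limma) and without Sham mouse 6 (log2FC -0.44, adjusted p = 0.0068, limma).

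Eif5a and Eif5a2 encode eIF5A, the only protein known to carry hypusine, which helps peptide bonds form at difficult sequences. Eif5a2 had 11.8, 13.1 and 24.3 FPKM in tMCAO/R mice, against 6.51, 7.88 and 11.4 FPKM in Sham mice. The groups did not overlap, with a log2FC of 0.75 (SE 0.17, adjusted p = 0.0019, limma), or 0.61 without tMCAO/R mouse 4, the highest library (adjusted p = 0.00061, limma). Eif5a had 12.9, 23.5 and 24.8 FPKM in tMCAO/R mice and 25.9, 27.1 and 29.6 FPKM in Sham mice. All tMCAO/R mice were below all Sham mice, but the gene was not called (log2FC -0.34, adjusted p = 0.052, limma). Without tMCAO/R mouse 4, its lowest library, the log2FC of Eif5a was -0.20 (adjusted p = 0.014, limma). Both enzymes that make hypusine were lower, Dhps with a log2FC of -0.36 (adjusted p = 0.007, limma) and Dohh with one of -0.73 (adjusted p = 0.0069, limma).

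Paralogs of 1 factor were then compared within each mouse, by the log2 ratio of their FPKM with 0.1 FPKM added. The 6 ratios were tested by a two-sided exact permutation test over mice, whose smallest possible p is 0.00216, and adjusted over the 6. The groups did not overlap for 3 of them. The Eif5a to Eif5a2 ratio was 0.59 ± 0.74 in tMCAO/R mice and 1.76 ± 0.36 in Sham mice (SD, n = 6 each), a difference of -1.17 (exact permutation p = 0.00216, adjusted p = 0.00433). Without tMCAO/R mouse 4 the difference was -0.87. The Eif4a1 to Eif4a2 ratio was -0.80 ± 0.21 in tMCAO/R mice and -0.36 ± 0.10 in Sham mice, a difference of -0.44 (exact permutation p = 0.00216, adjusted p = 0.00433). The Eif4g1 to Eif4g3 ratio was 0.04 ± 0.24 in tMCAO/R mice and -0.31 ± 0.08 in Sham mice, a difference of 0.35 (exact permutation p = 0.00216, adjusted p = 0.00433).

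In each of these pairs the ratio was shifted, towards Eif5a2, Eif4a2 and Eif4g1. For Eif4g1 to Eif4g3 the ranges were barely apart, at -0.17 and above in tMCAO/R mice and -0.20 and below in Sham mice. Ratios of other gene pairs were not tested, so no share of all pairs stands beside these. The 3 shifts were towards the longer canonical transcript (5091, 2453 and 6409 bases, against 1368, 1775 and 6134). The part of length in them was not tested. The Eif4ebp1 to Eif4ebp2 ratio was -1.88 ± 0.38 in tMCAO/R mice and -2.82 ± 0.39 in Sham mice, a difference of 0.93 with some overlap (exact permutation p = 0.00433, adjusted p = 0.00649). That shift was towards the shorter transcript, of 2004 bases against 6022. The Eif1a to Eif1ax ratio differed by -0.27 (exact permutation p = 0.0455, adjusted p = 0.0545) and did not pass 0.05 after adjustment. The Eif1 to Eif1b ratio differed by 0.19 (exact permutation p = 0.405), and by 0.02 without tMCAO/R mouse 4. Both genes were lower.

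**Figure D4:**
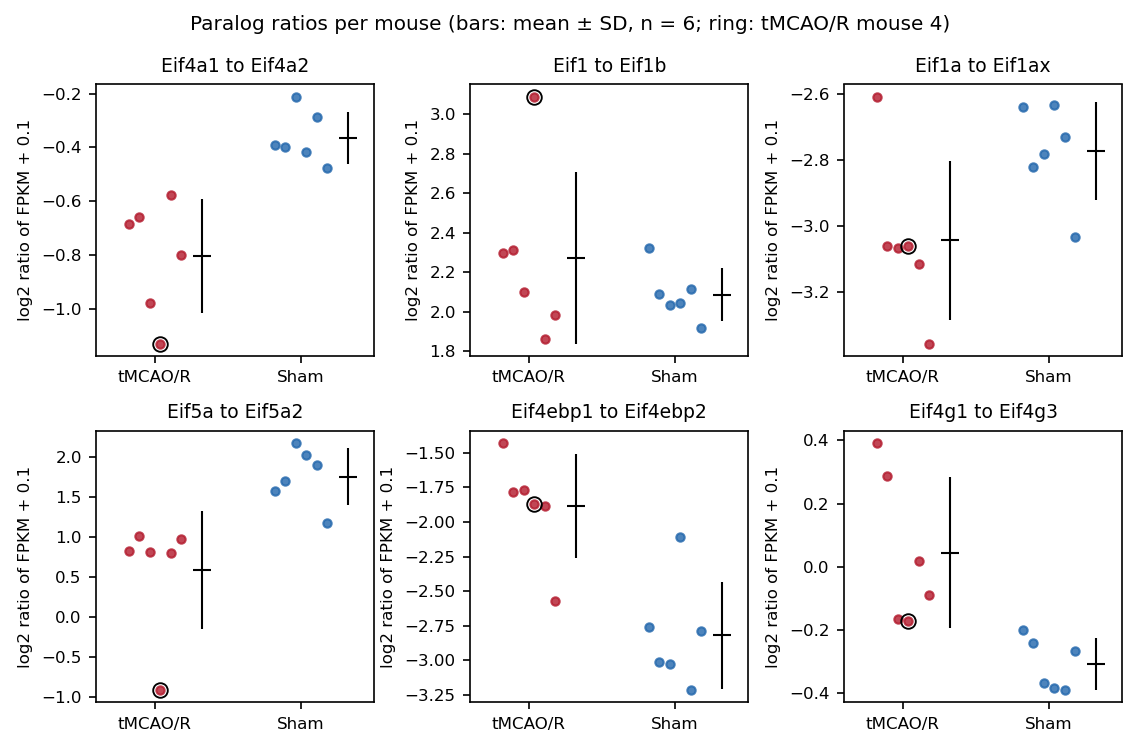
Log2 ratio of the FPKM of 6 pairs of paralogs in each of the 6 tMCAO/R and 6 Sham mice, with the mean and SD beside the points and tMCAO/R mouse 4 ringed. The groups do not overlap for Eif5a to Eif5a2, Eif4a1 to Eif4a2 and Eif4g1 to Eif4g3, and the Eif5a to Eif5a2 ratio of mouse 4 is -0.91.

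The differences of the members varied with transcript length. Across the 50 members the Spearman correlation of log2FC with the length of the canonical transcript was 0.53, across the 13 eIF3 members 0.67, and across 11740 tested genes 0.41. The first 2 include the Eif3j pair at its FPKM log2FC of 1.00 and the length of Eif3j1. Without the pair the correlation across members was 0.51, and that across eIF3 was not computed. These are correlations across genes of the same 12 libraries, given as a description. The 25 shorter members, of 836 to 2566 bases, had a median log2FC of -0.21, and the 25 longer ones, of 2582 to 8002 bases, one of 0.12. Eif3k, the shortest at 836 bases, and Eif1b at 1051 bases were lower, and Eif5a2 at 5091 bases and Eif3a at 5182 bases were higher. Eif5b at 7873 bases went the other way and was lower. The part of length in the members' differences was not tested.

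**Figure D5:**
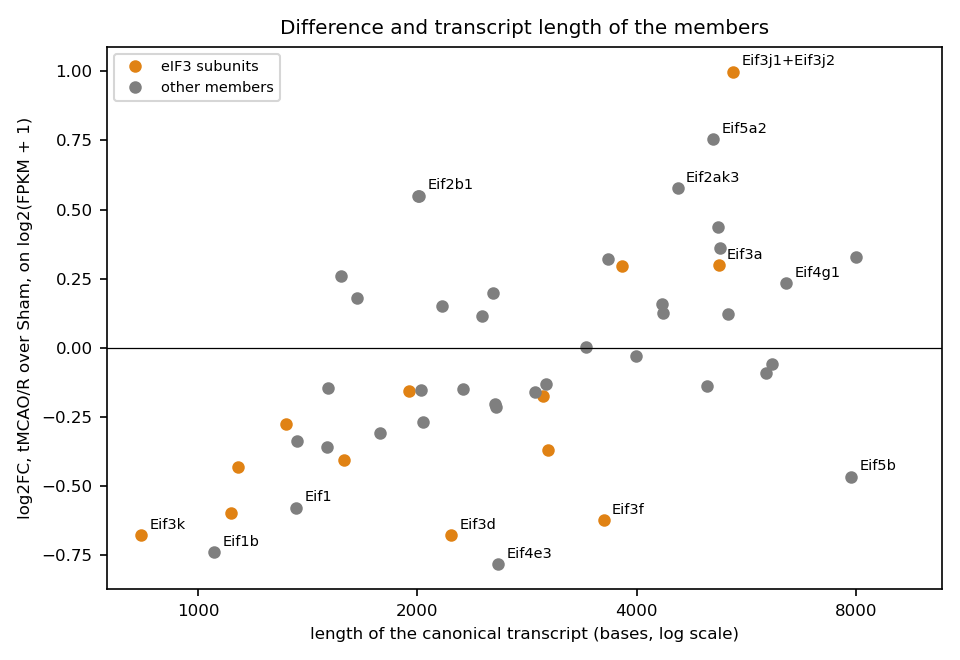
Log2FC of tMCAO/R over Sham on log2(FPKM + 1) against the length of the canonical transcript in bases (log axis) for the 50 members, with the 13 eIF3 members in orange. Shorter transcripts lie lower (Spearman 0.53), with Eif3k at 836 bases and a log2FC of -0.68 at the left.

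Promoter sequences were read for 41 of the 51 genes from RefSeq (GRCm38.p6), 250 bases before to 50 bases after the start. The E-box CACGTG, the letters bound by MYC and by TFEB, lay in 8 of 41 promoters (19.5%), beside 7.24% of the promoters of 27025 genes. It reads the same on both strands. The 27025 include genes that were not tested here, and the share among the 11742 tested genes was not computed. The E-box was found in 2 of 5 promoters of higher members, 4 of 8 of lower members and 2 of 27 of members without a call. The same split over all genes was not computed, so no share stands beside these counts. The E-box was not found in the promoter of Eif3j1, for which a call is given only for the sum with its copy. The windows of 26 bases around it in the 6 called members are shown because they carry genes of both directions, 5′ to 3′ on the strand of the gene, with the E-box in capitals.
Eif3k, lower, chr7:28981917-28981942, minus strand: ggaaggaaatCACGTGgtagacaaaa
Eif3f, lower, chr7:108934337-108934362, plus strand: agatatgattCACGTGgtataaattt
Eif1b, lower, chr9:120492572-120492597, plus strand: tgcggacggtCACGTGgcggcggcgc
Eif4a1, lower, chr11:69672597-69672622, minus strand: atcgcctccgCACGTGtaaaggtgct
Eif3a, higher, chr19:60790656-60790681, minus strand: gcgagggaatCACGTGgttccttcct
Eif5a2, higher, chr3:28781150-28781175, plus strand: gggcgagcttCACGTGacggggcggg

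The E-box of Eif3k began 44 bases and that of Eif3f 68 bases before the start of transcription. A run of C and at least 4 further pyrimidines within 5 bases of the start on the strand of the gene, as in the terminal oligopyrimidine tracts of mRNAs under mTORC1 control, was found in 10 of 41 promoters (24.4%), beside 18.5% of all, and in 1 of 8 lower members (Eif3f). The motif TGATGNAA, read on both strands as in targets of ATF4, was in none of the 41 and in 4.06% of all promoters. Both shares of all promoters are over the 27025 genes, which include genes not tested here. The 41 do not include the called members Eif3h, Eif3i, Eif4e3 and Eif4ebp1. A match is a description of letters and not of binding.

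The rest of the translation machinery is given from lists of genes outside the members. Each list stands beside all 11742 genes tested, of which 17.8% were called in each direction and 35.6% either way. Of 10 genes with Eef symbols, elongation factors and related proteins such as Eef2k, Eef2kmt and Eef1e1, none was higher and 5 were lower. Their median log2FC was -0.36. Eef1g, a subunit of the exchange factor of eEF1A, had 32.7 ± 9.18 FPKM in tMCAO/R mice and 63.6 ± 4.27 FPKM in Sham mice (SD, n = 6 each), with a log2FC of -0.98 (adjusted p = 0.0001, limma). Eef1d, another subunit of that factor, was lower with a log2FC of -0.67 (adjusted p = 0.00081, limma). Eef1a1, which brings tRNA to the ribosome, was lower with a log2FC of -0.54 (adjusted p = 0.0011, limma), whereas Eef1a2, its form in neurons and muscle, had a log2FC of 0.10 and was not called. Eef2, the translocation factor, had a log2FC of -0.23 and was not called.

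Of 8 release and recycling factors 1 was higher and 1 was lower, beside 17.8% of all genes in each direction. Gspt1, the release factor eRF3a, was higher with a log2FC of 0.72 (adjusted p = 0.00034, limma), and Mcts1, which works with Denr in recycling and reinitiation, was lower with a log2FC of -0.68 (adjusted p = 0.00017, limma). Etf1, the release factor that reads stop codons, had a log2FC of 0.24 and was not called. Of 9 poly(A)-binding proteins and partners 3 were higher and 1 was lower. The lower one was Pabpn1, the nuclear poly(A)-binding protein, with a log2FC of -0.65 (adjusted p = 0.00024, limma) and groups that did not overlap. Paip2b, an inhibitor of the cytoplasmic protein, was higher with a log2FC of 0.48 (adjusted p = 0.00055, limma). Pabpc1, the cytoplasmic protein itself, had a log2FC of 0.20 and Paip2, a relative of Paip2b, one of -0.35, and neither was called. Of 17 other helpers of initiation 3 were higher and none was lower: Ctif, a partner of the nuclear cap-binding complex, Cyfip2, a relative of the FMRP partner Cyfip1, and Bzw1, a mimic of eIF5, with log2FC of 0.57, 0.56 and 0.42. Ddx3x, a helicase, had a log2FC of 0.12 and was not called.

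Of 21 genes of mTORC1 and its path to the eIF4E-binding proteins, 3 were higher and 7 were lower, with a median log2FC of -0.03. Among all genes 17.8% were called in each direction. Deptor, an inhibitor of mTOR, had 2.59 ± 0.469 FPKM in tMCAO/R mice and 0.765 ± 0.142 FPKM in Sham mice (SD, n = 6 each), with a log2FC of 1.02 (adjusted p = 1.6e-06, limma). Rragd, a GTPase that brings mTORC1 to the lysosome, was higher with a log2FC of 0.73 (adjusted p = 4.6e-05, limma). Rps6, a protein of the small subunit that is phosphorylated downstream of mTORC1, was lower, at 69 ± 16.8 FPKM in tMCAO/R mice and 133 ± 25 FPKM in Sham mice (SD, n = 6 each), with a log2FC of -0.95 (adjusted p = 0.0002, limma). The other lower genes were Rps6kb2, an S6 kinase, at a log2FC of -0.48, and Lamtor1 to Lamtor5, which anchor mTORC1 signalling at the lysosome, at -0.40, -0.78, -0.36, -0.83 and -0.65. Rraga, another such GTPase, had a log2FC of 0.16 and was not called. Of 9 factors of mitochondrial translation none was higher and 1 was lower, Gfm2 with a log2FC of -0.31 (adjusted p = 0.003, limma). Mtrf1l, Tufm and Gfm1 had log2FC of -0.39, -0.26 and 0.13 and were not called.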

How the data were processed

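Poly(A) mRNA of 12 mice was sequenced in pairs of reads. According to the study's methods and the submitters' processing notes, the authors trimmed with fastp (version not given), aligned to GRCm39 with HISAT2 2.2.1, computed the deposited FPKM with HTSeq 2.0.2 and tested with DESeq2 1.24.0. The annotation release and strand setting are not given in the sources used here.

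The members and lists were chosen with earlier results of these data known. Genes that reached 0.5 FPKM in 6 or more libraries were compared with limma 3.58.1 (trend) in R 4.3.3 on log2(FPKM + 1), which understates the change of low genes, with Benjamini-Hochberg adjustment over 11742 genes and a call at 0.01. Eif3j1 and Eif3j2 entered as their summed FPKM. Values by group are given for up to 8 called members of smallest p in each direction (all 7 higher ones), the 3 of highest mean FPKM, the genes of each ratio, the Eif3j pair and Eif2s1. Each list outside the members gives up to 4 genes, 2 by p and 2 by mean FPKM. Eef1a1, Bzw1, Rps6kb2 and the Lamtor genes were added after their values were seen.

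Whole fragments were recovered from the FPKM steps for 14316 of 14317 genes (tolerance 1e-05 fragments), and limma-voom on them (10 or more fragments in 6 or more libraries) tested 13898 genes and called 5 members higher and 11 lower, beside 16.3% and 16.5% of all genes. At 33 to 14724 fragments per library among the members, counting error is largest for Eif4ebp1 and Eif2ak2. Paralog ratios were tested by exact permutation (Python 3.11.15, scipy 1.17.1, numpy 2.4.6, pandas 2.3.3), and figures were drawn with matplotlib 3.10.9. The scripts were tested on simulated data. Copies of at least 95% identity over at least 50% of their length were sought with BLAST 2.17.0 in GENCODE M39, where 14 members had 37, and 1 of these (Eif3j2) is in the table, so fragments of the others may be split. GEO's labels number the libraries and do not name the animals, so p-values measure the spread between these libraries. Alternatives were another pseudocount, other filters, quantile normalization, limma-voom, a replicate block, other thresholds and leaving out each library.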

Additional observations from a re-analysis of the deposited data

Results flagged for a closer look

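Among 112 groups of 6 mice, 20 held a library far from the other 5 by Dixon's test on the log scale, where chance gives about 1 in 20. Of these, 16 were tMCAO/R mouse 4. In that mouse the FPKM were high for Eif1a (7.49, others 3.51 to 4.71), Eif1ax (63.2, others 29.3 to 36.9), Eif2ak4 (1.27, others 0.629 to 0.834), Eif4e (18.6, others 12.2 to 13.1), Eif4g2 (61.2, others 33.8 to 41.2) and Eif5a2 (24.3, others 11.8 to 14). They were low for Eif1b (11, others 18.1 to 21.7), Eif2d (0.799, others 1.15 to 1.36), Eif3b (15.4, others 29.5 to 33.4), Eif3d (1.45, others 3.48 to 4.26), Eif3g (7.01, others 16.3 to 22.9), Eif4ebp2 (5.76, others 8.2 to 9.86), Eif4g1 (3.12, others 4.72 to 5.14) and Eif5a (12.9, others 22.5 to 24.8). Its log2 ratio of Eif1 to Eif1b was 3.09 (others 1.86 to 2.31), and that of Eif5a to Eif5a2 was -0.91 (others 0.799 to 1.01). Mitochondrial transcripts took 8.69% of the fragments of this mouse (its group otherwise 2.85% to 4.66%), and their part in these values was not tested.

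Elsewhere, Eif2b5 was high in tMCAO/R mouse 2 (18.6 FPKM, others 12.5 to 14.1). In Sham mouse 6 the FPKM were low for Eif1 (102, others 131 to 146), Eif2b5 (14.5, others 15.9 to 16.8) and Eif6 (6.19, others 8.52 to 9.58).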

How the results depend on the processing

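Without single libraries the number of higher members ran from 5 to 11, beside 14.3% to 21.9% of all genes. That of lower members ran from 8 to 15, beside 13.7% to 21.3% of all genes. The highest counts, 11 and 15, came without tMCAO/R mouse 4, where 21.9% and 21.3% of all genes were called. They held all 7 and 11 of the full set. The full set gave 12 higher and 15 lower members at an adjusted p of 0.05, and 0 and 0 at an absolute log2FC of 2. For the adjusted p of 0.05 the share of all genes was not computed. The count of members without overlap, 16 in the full set, was examined after seeing the data under the same settings. It was 9 on fragments not scaled by library totals and 15 on scaled ones, beside 21.3% and 25.2% of all genes. Without single libraries it was 16 to 21, beside 26.9% to 34.8% of all genes. Over all tested genes, mice of the same number did not deviate together (correlations of -0.12 to 0.22, 1 of 6 over 0.1, 1 of 6 best with its own number). A pairing that moves only some genes need not show in this check, so it cannot exclude one. The main fit used no pairing. With the replicate block 4 members were higher and 7 lower, beside 15% and 14.5% of all genes. On fragments, which are not divided by the unequal lengths of the copies, the summed Eif3j pair had a log2FC of 0.35 and was not called. That fit also used another model and filter, and the part of each in the lost call was not tested. The Eif1a to Eif1ax ratio difference was -0.29 with 1 FPKM added (adjusted p = 0.042, exact permutation), and ran from -0.36 to -0.21 without single libraries. Under quantile normalization Eif2s1 had a log2FC of -0.03 and Eif4b one of 0.08, and the cause was not tested. Without single libraries Eif2s1 ran from -0.09 to 0.04, Eif4b from -0.08 to 0.02 and Eif4ebp2 from -0.14 to 0.00. The sign of Eif2s1 turned without tMCAO/R mouse 2 (-0.01) or 4 (-0.09) and without Sham mouse 2 (-0.02) or 3 (-0.02), and without tMCAO/R mouse 4 Eif4b had 0.02 and Eif4ebp2 0.00. None of these 3 genes was called under any setting. Of 898 values of single members and the pair under other settings, 8 turned, 52 lost a call and 12 gained one. Depth limits Eif4ebp1 and Eif2ak2, the members with the fewest fragments.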
